A study of Mus musculus with 20 samples.

Results

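The genes of the proteasome were followed in whole fetal mouse hearts after maternal exposure to TCDD (2,3,7,8-tetrachlorodibenzo-p-dioxin), a persistent pollutant that activates the aryl hydrocarbon receptor (AhR). They were taken as the Affymetrix MG-U74Av2 probe sets whose single annotated symbol starts with Psma, Psmb, Psmc, Psmd or Psme. The rule matched 53 probe sets of 42 genes. Psmc3ip and Psme3ip1 match by name alone, as proteins named after a subunit they bind, and were set apart. That left 40 genes on 51 probe sets, of 8251 genes with a single symbol on the array. After a filter on low signals, 37 of the 40 genes were kept, each represented by its brightest kept probe set. Psmb9, Psmc4 and Psmd2 were below the filter and are described separately. Psme2, a listed immune subunit, is no member because its probe sets are annotated to both Psme2b and Psme2, and its values are given as those of that pair.

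The proteasome is the barrel-shaped protease that degrades ubiquitin-tagged proteins. Its core particle stacks inner rings of β subunits (Psmb genes), which hold the catalytic sites, between outer rings of α subunits (Psma genes). A regulatory particle of ATPases (Psmc genes) and other subunits (most Psmd genes) recognises, unfolds and feeds in the substrate. In immune cells and under interferon, the catalytic β subunits Psmb5, Psmb6 and Psmb7 can be replaced by Psmb8, Psmb9 and Psmb10, and the PA28 activator of Psme1 and Psme2 is raised. These immune forms favour peptides for display on MHC class I. In heart muscle the proteasome clears worn and misfolded sarcomere proteins.

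The data were 20 arrays of total RNA. The 8 control arrays were labelled as hearts from vehicle (corn oil) treatment by oral gavage on gestation day 14.5 and collection on gestation day 17.5. TCDD was given by the same route at 1.5, 3 or 6 µg/kg, with 4 arrays for each dose. The treatment day reads 14.5 on 19 arrays, and the label of 1.5 µg/kg array 1 gives another figure. Strain, the sex of the fetuses and whether arrays came from separate litters or pooled hearts are not given in the sources used here, so p-values measure only the spread between these arrays, which may be technical. The series' design text gives 4 replicates per group, whereas 8 control arrays are labelled.

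The arrays carried heart RNA. All 8 cardiomyocyte markers on the array were kept, and their summed signal was 115873 to 127790 in controls, 98702 to 129786 at 1.5 µg/kg, 109044 to 118749 at 3 µg/kg and 118376 to 141601 at 6 µg/kg. The AhR target Cyp1a1, a xenobiotic-metabolising enzyme, read 15.4 to 70.6 in controls, below the 40th percentile of every array (101.6 to 127.3), and had means of 224, 275 and 507 at 1.5, 3 and 6 µg/kg. It passed the filter on low signals through the TCDD arrays alone, so these signals are given without a fold or a test. Leukocyte markers differed between the groups too: the summed signal of the 17 listed genes was 3825 to 4317 in controls, 4851 to 5256 at 1.5 µg/kg, 5024 to 5627 at 3 µg/kg and 5197 to 5759 at 6 µg/kg. All 13 kept ones had a higher mean at each dose, where 48.3%, 48.6% and 51.5% of all kept genes were lower. Of the 13, 1, 0 and 1 passed a limma adjusted p under 0.05 at 1.5, 3 and 6 µg/kg. No listed marker was at 0 on all arrays. The summed markers of mast cells, lung epithelium, liver, erythroid cells and thymus overlapped between the controls and each dose. Among the 4 kept mast cell markers, however, the protease Cma1 fell by 0.90 at 1.5 µg/kg and by 1.09 at 6 µg/kg on the log2 scale (limma, adjusted p = 0.018 and 0.0026), and was at -0.80 at 3 µg/kg (adjusted p = 0.14). All 3 kept lung markers had a higher mean at 1.5 and 3 µg/kg (median log2 change 0.96 and 1.235). At 6 µg/kg 2 of 3 did. All 4 kept liver markers were higher at 1.5 µg/kg (median 0.33), and 3 of 4 at the other doses. None passed the test, and the shares of all kept genes are those given for leukocyte markers. Control sets also differed: in controls 1 to 4 against 5 to 8, the lung, liver and thymus medians were -1.01, -0.84 and -0.72. In whole hearts, more cells of a type and more RNA per cell cannot be told apart. The 3′ to middle signal ratio of β-actin, a measure of RNA integrity, was above 0.75 (log2) on controls 1, 2 and 6 and on 6 µg/kg array 4, and ranged from 0.35 to 1.33 over all arrays.

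Signals are the deposited MAS5 signals scaled to a trimmed mean of 500 per array. Changes are differences in mean log2(signal + 32), with a standard error (SE) from limma, and p-values were adjusted by Benjamini and Hochberg's method over all 8097 kept probe sets. Since every dose is compared with the same 8 controls, the changes at the 3 doses are not independent of each other.

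No proteasome gene differed from controls at an adjusted p under 0.05 at any dose. The counts were 0 of 37 at 1.5 µg/kg, against 0.23% of the 6099 kept genes, 0 of 37 at 3 µg/kg against 0.0328%, and 0 of 37 at 6 µg/kg against 0.0984%. The mean of the 3 doses against controls (0 of 37, against 0.0656%), a linear trend over dose (0 of 37, against 0.082%) and 6 against 1.5 µg/kg (0 of 37, against 0.279%) gave none either. Controls 1 to 4 against controls 5 to 8 gave 0 of 37 where 1.52% of all genes passed. With so few genes passing in the whole data set, a count of 0 is near the background share in each comparison and does not show that the genes were unchanged.

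Below that threshold the members lay mostly on one side at the lowest dose. At 1.5 µg/kg, 32 of 37 had a lower mean than controls, with a median log2 change of -0.16, where 48.3% of all kept genes were lower and their median was 0.008. An unadjusted limma p under 0.05 was reached in the lower direction by 11 of 37 members (29.7%), against 5.16% of all kept genes, and in the higher direction by 2 of 37, against 7.43%. The 11 were Psmb4, Psmb5, Psmb7, Psmb10, Psmc1, Psmc2, Psmd6, Psmd7, Psmd8, Psmd13 and Psmd14, and the 2 were Psmd3 and Psme3. At 3 µg/kg, 28 of 37 were lower, where 48.6% of all kept genes were, and the unadjusted counts were 2 lower (Psmb4 and Psmd13), against 2.39%, and 0 higher, against 3.53%. At 6 µg/kg, 22 of 37 were lower, where 51.5% of all kept genes were, with 1 (Psmc3) past the unadjusted p in the lower direction, against 4.26%, and 2 (Psmb8 and Psmd9) in the higher one, against 4.48%. Control sets alone also differed to one side. In controls 1 to 4 against controls 5 to 8, 23 of 37 members were lower, where 48.9% of all kept genes were. The unadjusted p was passed there by 7 members in the lower direction, against 462 of 6099 genes, and by 0 in the higher, against 473.

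Whole groups seldom lay outside the control range. No member had all 4 arrays of 1.5 µg/kg below every control array, against 0.394% of all genes, or above, against 1.1%. At 3 µg/kg, Psmc2 and Psmd13 lay below all controls on all 4 arrays, 2 of 37 against 0.262%, and none lay above, against 0.377%. At 6 µg/kg none lay below, against 0.361%, and Psmd9 alone lay above all controls on all 4 arrays, 1 of 37 against 0.525%.

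**Figure D1:**
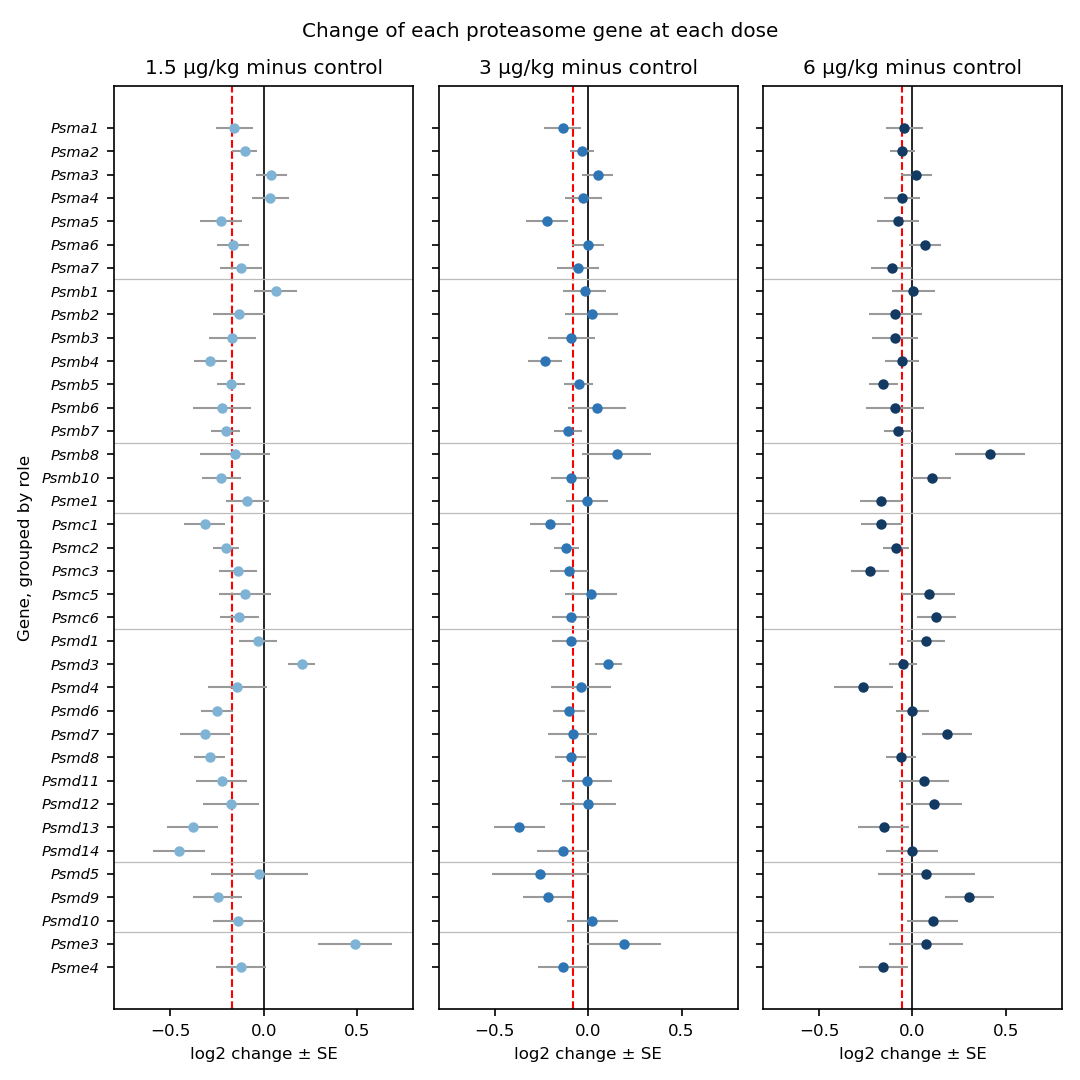
Log2 change from controls (x axis, ± SE from limma) of the 37 kept proteasome genes, in rows grouped by role, with 1 panel for each dose. The solid line marks no change and the red dashed line the median of the 29 standard subunits, which was -0.17, -0.083 and -0.055 from the lowest to the highest dose.

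The 29 kept standard subunits of the core and regulatory particles had a median log2 change of -0.17 at 1.5 µg/kg, with 25 of 29 lower. The median was -0.083 at 3 µg/kg with 23 of 29 lower, and at 6 µg/kg it was -0.055 with 20 of 29 lower. Over all kept genes the medians at those doses were 0.008, 0.005 and -0.005. The levels at the higher doses depend on the arrays used. At 3 µg/kg the standard median was -0.044 without control 6, -0.051 without control 4 and -0.025 against controls 1 to 4 alone. The 6 µg/kg value was -0.023 without control 6, -0.015 without 6 µg/kg array 2 and -0.016 against controls 1 to 4 alone. At 1.5 µg/kg it was -0.14 without control 6, -0.12 without 1.5 µg/kg array 1 and -0.16 without array 2, while the 11 members past the unadjusted p became 9, 7 and 8. Leaving out the 4 arrays of high β-actin ratio gave a standard median of -0.15 at that dose.

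A measure of RNA quality also differed at 1.5 µg/kg, while the heart muscle markers there lay on both sides of the controls. The 3′ to 5′ signal ratio, averaged over β-actin and Gapdh, was 0.02 to 0.30 (log2) in controls and 0.07, -0.02, -0.02 and -0.03 on arrays 1 to 4 of that dose, 3 of them below every control. With this ratio as a covariate the standard median there was -0.20. Of the 8 cardiomyocyte markers, 5 had a lower and 3 a higher mean at 1.5 µg/kg, and 7 a lower and 1 a higher mean at 3 µg/kg. Their medians were -0.036 and -0.066, and none passed the test. At 6 µg/kg, 6 had a higher and 2 a lower mean, with a median of 0.075, and none passed there either. The changes ran from -0.23 to 0.095 at 1.5 µg/kg and from -0.22 to 0.002 at 3 µg/kg. Among the lower ones, Myh6, the α heavy chain of cardiac myosin, was at -0.23 and -0.22 at those doses (adjusted p = 0.24 and 0.73), and Ryr2, the calcium release channel, at -0.20 and -0.064 (adjusted p = 0.36 and 0.98). The part of the heart muscle RNA content in the values of the standard subunits was not tested.

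The lower means at 1.5 µg/kg came unevenly from its arrays. Relative to each gene's control mean, the median log2 signal of the standard subunits was -0.27 on array 1, -0.26 on array 2, -0.082 on array 3 and -0.10 on array 4. The medians at 3 µg/kg lay between -0.094 and -0.055, and at 6 µg/kg between -0.12 and 0.044. The controls ran from -0.078 to 0.074, apart from control 6 at 0.20, where all 29 standard subunits were above their control mean. The medians of all kept genes stayed between -0.022 and 0.029 on every array. Arrays 1 and 2 of 1.5 µg/kg thus lay below every control, and the other arrays of that dose just below the lowest one.

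**Figure D2:**
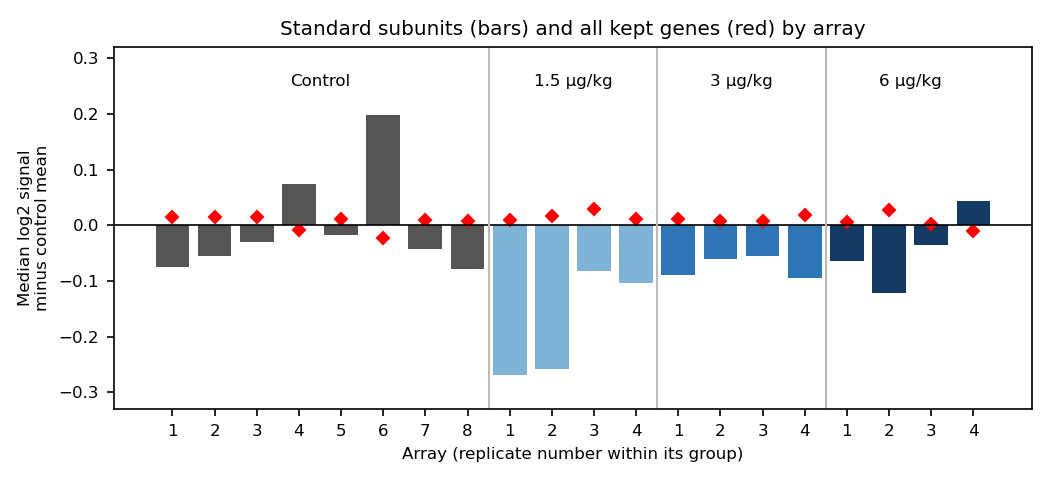
Median log2 signal minus the control mean (y axis) on each of the 20 arrays (x axis), for the 29 standard subunits (bars, coloured by group) and for all 6099 kept genes (red diamonds). Control 6 stands highest at 0.20 and arrays 1 and 2 of 1.5 µg/kg lowest at -0.27 and -0.26, whereas the red points keep within -0.022 to 0.029.

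The 7 α-ring genes, which form the gated entrance of the core, held no gene past an unadjusted p under 0.05 at any dose. Their medians were -0.12, -0.032 and -0.055 at 1.5, 3 and 6 µg/kg. Psma5 had the lowest mean of the ring at 1.5 µg/kg, with signals of 1357 ± 67.4 (SD, n = 4) against 1610.0 ± 253 (SD, n = 8) in controls, a log2 change of -0.23 (SE 0.11, limma adjusted p = 0.40). Control 6 read 2198 for Psma5 and the other controls 1400.0 to 1681. The same gene was at -0.22 at 3 µg/kg (adjusted p = 0.88) and -0.079 at 6 µg/kg (adjusted p = 0.84). Psma3 was on the higher side at each dose, at 0.041, 0.051 and 0.021.

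Of the 7 standard β-ring genes, 6, 5 and 6 had a lower mean than controls at the 3 doses in rising order. The chymotrypsin-like subunit Psmb5 read 2763 to 3617 in controls, with a median of 3037. Its 4 arrays read 2729, 2460, 2890 and 2870 at 1.5 µg/kg, 3079, 2991, 3216 and 2659 at 3 µg/kg, and 2857, 2681, 2593 and 2942 at 6 µg/kg. Each dose overlaps the control range, and the log2 changes were -0.17 (SE 0.077, adjusted p = 0.35), -0.051 (adjusted p = 0.98) and -0.16 (adjusted p = 0.55). A dimmer Psmb5 probe set, at a control mean of 221, gave 0.25, 0.28 and 0.10, the opposite sign, so the direction for this gene depends on the probe set.

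The trypsin-like subunit Psmb7 read 2020 to 2530 in controls and 2140, 1857, 2078 and 2021 at 1.5 µg/kg, a log2 change of -0.20 (SE 0.076, adjusted p = 0.26). At 3 and 6 µg/kg it was at -0.11 and -0.077 (adjusted p = 0.93 and 0.78). All 4 arrays of 1.5 µg/kg lay below the control mean of 2340.2, but only array 2 below the lowest control. The caspase-like subunit Psmb6 was the most scattered of the standard catalytic ones, with 2039 to 3375 in controls and 1704, 2408, 1791 and 2842 at 1.5 µg/kg. Its log2 changes were -0.22, 0.048 and -0.095 (SE 0.155, adjusted p = 0.58, 0.99 and 0.86), within the spread of the arrays.

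Psmb4, a structural β subunit that takes part in core assembly, had a lower mean at both of the lower doses. Controls read 3497 to 5022, and the arrays of 1.5 µg/kg 3861, 3044, 3368 and 3421, 3 of them below every control. The 3 µg/kg arrays read 3404, 3726, 3750.4 and 3307, with 2 below every control, and at 6 µg/kg 3797, 3926, 3819 and 4505. The log2 changes were -0.29 (SE 0.090, adjusted p = 0.19), -0.23 (adjusted p = 0.74) and -0.057 (adjusted p = 0.86). The brightest probe sets of Psmb4 and Psmb7 have an _f_ suffix, which Affymetrix gave to sets that can detect several members of a gene family, as have those of Psma3, Psmc3 and Psmd12. The brightest set of Psmb5 has an _s_ suffix and its dimmer set has none. Which of these sets is the more specific was not tested. For Psmb1 the kept probe sets disagreed at 1.5 µg/kg, at 0.064 for the brightest and -0.26 for the other.

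Among the ATPases of the regulatory particle, all 5 kept genes had a lower mean at 1.5 µg/kg (median -0.14), 4 did at 3 µg/kg (median -0.10), and 3 did at 6 µg/kg (median -0.088). Psmc1 showed the lowest value, -0.32 at 1.5 µg/kg (SE 0.11, adjusted p = 0.23), with arrays at 734, 761, 932 and 983 against 874 to 1349 in controls. Psmc2 was the tightest, at 1875 to 2180 in controls and at 1787, 1871, 1808 and 1721 at 3 µg/kg. Those 4 arrays lay below all 8 controls, yet by a small amount, -0.12 on the log2 scale (SE 0.068, adjusted p = 0.89), and 3 of 4 arrays at 1.5 µg/kg did so too, at 1574, 1627 and 1693, with 1894 for array 3. Psmc3 was lowest at 6 µg/kg, at -0.23 (SE 0.10, adjusted p = 0.52), with arrays at 1572, 1346, 1779 and 1851 against 1591 to 2398 in controls. Its other 2 probe sets gave 0.021 and 0.057 at that dose.

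Of the 10 kept non-ATPase subunits, 5 were past the unadjusted p at 1.5 µg/kg in the lower direction (against 5.16% of all kept genes) and 1 in the higher (against 7.43%), and their median was -0.24. Psmd14, the metalloprotease that removes ubiquitin chains from substrates, had the lowest log2 change of all members. Its signals were 682, 611, 1107 and 824 at 1.5 µg/kg against 844 to 1251 in controls, with a control median of 1178. Arrays 1, 2 and 4 were below every control and array 3 inside the range. The log2 change was -0.45 (SE 0.14, 95% interval -0.74 to -0.16, adjusted p = 0.18), a fold of 0.73. It was at -0.13 at 3 µg/kg, with arrays 1 to 3 at 1039.5, 1052 and 1017 and array 4 at 858. At 6 µg/kg it was at -0.0010, with array 4 again at 858 and the others between 1144 and 1194.

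The controls of Psmd14 were themselves divided. Controls 1, 2, 3 and 4 read 844, 880, 1144 and 989, and controls 5 to 8 read 1227, 1251, 1234 and 1213. The first 4 were lower by 0.35 on the log2 scale (SE 0.14, adjusted p = 0.24), so that the change at 1.5 µg/kg was -0.28 (adjusted p = 0.55) against controls 1 to 4 and -0.63 (adjusted p = 0.030) against controls 5 to 8. Without 1.5 µg/kg array 3 it was -0.61 (adjusted p = 0.040). Over all alternatives tried the adjusted p of Psmd14 at this dose ran from 0.030 to 0.61.

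Psmd13, a structural lid subunit, had a lower mean at both 1.5 and 3 µg/kg. Controls read 968 to 1656, with control 6 the highest, and the arrays read 818, 817, 854 and 992 at 1.5 µg/kg and 890.3, 851, 864 and 898 at 3 µg/kg. The whole 3 µg/kg group lay below the controls, and 3 of 4 arrays of 1.5 µg/kg did. The log2 changes were -0.38 (SE 0.14, adjusted p = 0.25) and -0.37 (adjusted p = 0.73), and -0.15 at 6 µg/kg (adjusted p = 0.75), where the arrays ran from 790 to 1430. Without control 6 the change at 1.5 µg/kg was -0.31.

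Psmd8, another lid subunit, had the smallest p of all members at 1.5 µg/kg. It read 987 to 1251 in controls and 804, 869, 1024 and 849 at 1.5 µg/kg, with 3 arrays below every control. The log2 change was -0.29 (SE 0.082, 95% interval -0.46 to -0.12, adjusted p = 0.15), and it was -0.093 at 3 µg/kg and -0.062 at 6 µg/kg. Psmd7, the partner that binds Psmd14 within the lid, was at -0.31 (adjusted p = 0.33), and Psmd6 at -0.25 (adjusted p = 0.23). Psmd4, a ubiquitin receptor, was at -0.14, -0.038 and -0.26 over the doses (adjusted p = 0.76, 0.99 and 0.61), with no stable order among them: leaving out 1 array moved the value at 6 µg/kg between -0.47 (array 4 of that dose) and -0.13 (array 2), and the value at 1.5 µg/kg between -0.25 (array 4) and -0.036 (array 1). Psmd3 stood apart with a higher mean at 1.5 µg/kg: its arrays read 2278, 2052, 2022 and 2118 against 1640 to 2029 in controls, with 3 above every control, a change of 0.20 (SE 0.074, adjusted p = 0.25).

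**Figure D3:**
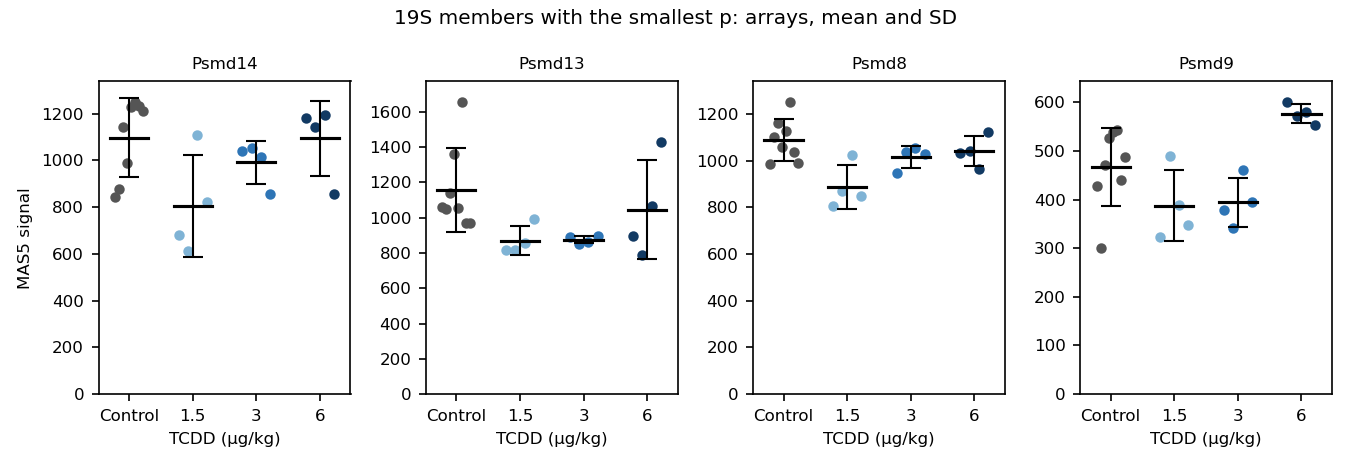
MAS5 signal (y axis, from 0) of Psmd14, Psmd13, Psmd8 and Psmd9 on every array (points), with group means (bars) and SD (error bars), for controls and the 3 doses (x axis). Psmd13 at 3 µg/kg reads at most 898 and the controls at least 968, and Psmd9 at 6 µg/kg reads at least 554 and the controls at most 544.

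The assembly chaperones that carry a Psmd name, Psmd5, Psmd9 and Psmd10, help build the regulatory particle and are not part of the finished complex. Psmd9 was the clearest of them. It read 427, 299.7, 470.3, 527, 539, 544, 441 and 487 on controls 1 to 8. At 1.5 µg/kg the arrays read 324, 490.1, 388 and 349, at 3 µg/kg 379, 342, 461 and 395, and at 6 µg/kg 601, 572, 580.2 and 554. The 6 µg/kg arrays lay above all the other arrays, a pattern whose share over all genes was not counted. Against controls the change at 6 µg/kg was 0.30 (SE 0.13, 95% interval 0.035 to 0.57, adjusted p = 0.51), and at 1.5 and 3 µg/kg it was -0.25 and -0.22 (adjusted p = 0.45 and 0.90). Its probe set has an _r_ suffix, which Affymetrix gave to sets that did not meet all of its probe selection rules. Psmd5 was the most variable member, with a pooled SD of 0.49 (log2), and Psmd10, an oncoprotein also called gankyrin, stayed between -0.14 and 0.11.

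**Figure D4:**
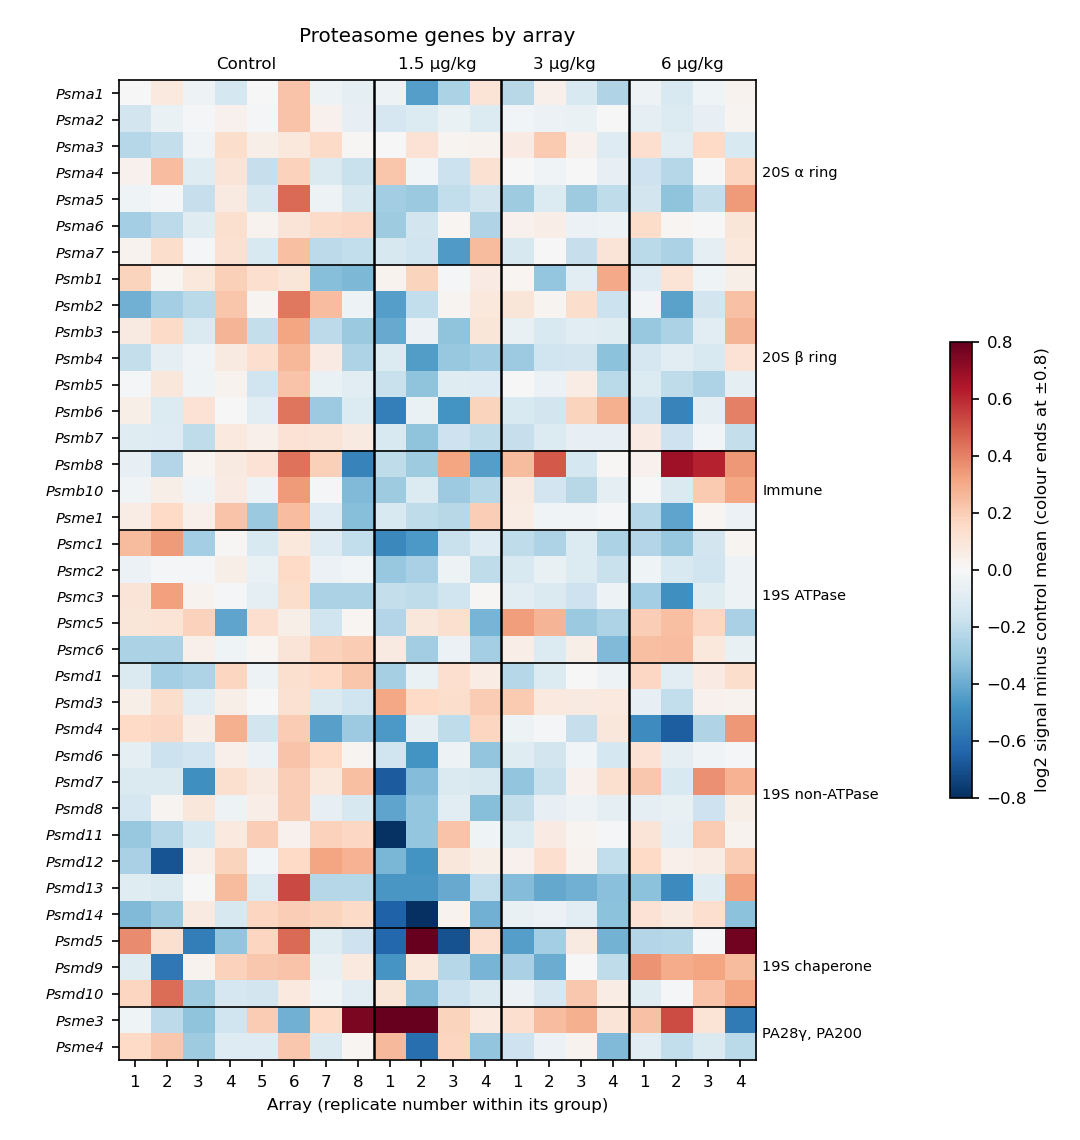
Log2 signal minus the control mean (colour, red higher and blue lower, ending at 0.8 in either direction) of the 37 kept proteasome genes (rows, grouped by role) on the 20 arrays (columns, by group and replicate number). Control 6 is red and arrays 1 and 2 of 1.5 µg/kg blue over most standard subunits. Psmd9 is red on every array of 6 µg/kg. Psmb8 is near its control mean on array 1 of that dose (0.033) and red on the others.

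The immune subunits ranked differently by signal. By rank among all compared probe sets in the control mean, Psmb8 lay at the 41.6th percentile and Psmb9 at the 14.0th, while Psmb10 lay at the 83.9th and Psme1 at the 94.3rd. Such ranks compare probe sets with different affinities and give no ratio between genes. The medians of the 3 kept immune members, Psmb8, Psmb10 and Psme1, were -0.15, -0.0040 and 0.10 at 1.5, 3 and 6 µg/kg. These medians of 3 genes were not stable. At 1.5 µg/kg the median was -0.09 without control 6 and -0.30 with the 3′ to 5′ covariate. At 3 µg/kg it was -0.11 against controls 1 to 4 and 0.10 against controls 5 to 8. The 6 µg/kg value was 0.033 without array 4 of that dose, 0.17 without array 2, 0.052 without control 8, and -0.034 with a filter at the 60th percentile, which drops Psmb8.

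Psmb8, the immune replacement of Psmb5, read 112, 95.9, 120.4, 126, 130.5, 171, 139 and 71.8 on controls 1 to 8. The arrays read 98.6, 91.5, 155 and 78.6 at 1.5 µg/kg, 148, 179, 104 and 119 at 3 µg/kg, and 122, 208, 198 and 159 at 6 µg/kg. Only arrays 2 and 3 of 6 µg/kg and array 2 of 3 µg/kg were above every control, and the groups overlap. The log2 changes were -0.15 (SE 0.19, adjusted p = 0.78), 0.15 (adjusted p = 0.97) and 0.42 (95% interval 0.029 to 0.80, adjusted p = 0.52). Over all alternatives tried the change at 6 µg/kg ran from 0.30 to 0.55, and its adjusted p from 0.24 to 0.98.

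Psmb10, which replaces Psmb7, read 751 to 1233 in controls, 788, 895, 785 and 822 at 1.5 µg/kg, 1017, 867, 826 and 919 at 3 µg/kg, and 971, 891, 1121 and 1206 at 6 µg/kg. Every array at every dose was within the control range. Its log2 changes were -0.23 (SE 0.10, adjusted p = 0.37), -0.093 (adjusted p = 0.96) and 0.10 (adjusted p = 0.78). Psme1, the α subunit of PA28, was at -0.087, -0.0040 and -0.17 (SE 0.11, adjusted p = 0.79, 1.0 and 0.65), with 1915 to 2891 in controls and 2067, 1806, 2453 and 2355 at 6 µg/kg.

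The brighter probe set shared by Psme2b and Psme2, the β subunit of PA28 and a close copy, cannot tell those genes apart. It read 520 to 888 in controls, 586, 592, 654 and 527 at 1.5 µg/kg, 759, 499.9, 529.5 and 497 at 3 µg/kg, and 1032, 956, 844 and 771 at 6 µg/kg. The 1.5 and 6 µg/kg groups did not overlap, while 2 of the 4 arrays at 6 µg/kg were inside the control range. How many of all probe sets separate those doses in this way was not counted. The changes were -0.24, -0.30 and 0.34 against controls (adjusted p = 0.46, 0.83 and 0.45), and 0.58 for 6 against 1.5 µg/kg (SE 0.15, 95% interval 0.27 to 0.89, adjusted p = 0.076).

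**Figure D5:**
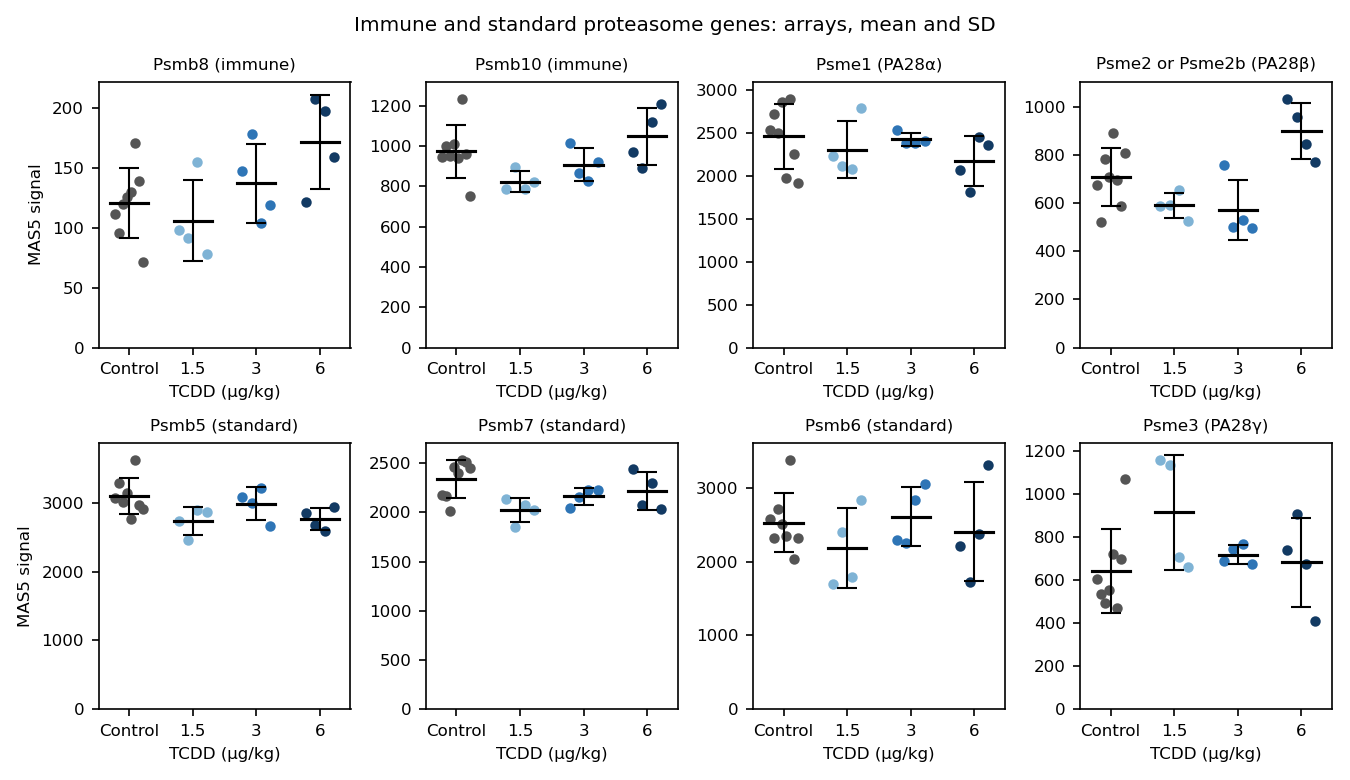
MAS5 signal (y axis, from 0) on every array (points), with group means (bars) and SD (error bars), of the immune subunits Psmb8, Psmb10 and Psme1, the shared Psme2 and Psme2b probe set, the standard catalytic subunits Psmb5, Psmb7 and Psmb6, and the activator Psme3, for controls and the 3 doses (x axis). Psmb8 reaches 198 and 208 on 2 arrays at 6 µg/kg against at most 171 in controls, and Psmb10 stays within its control range at all doses.

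As a within-array view of the exchange, the log2 signal of each immune subunit was set against its standard counterpart after centring each on its control mean. The difference Psmb8 minus Psmb5 was 0.022 ± 0.31, 0.20 ± 0.30 and 0.57 ± 0.36 (SD, n = 4) from the lowest to the highest dose, with a control range of -0.45 to 0.27. The 6 µg/kg arrays ran from 0.14 to 0.88 and still overlap the controls. With the dimmer Psmb5 probe set, an alternative chosen after seeing the data, the same difference was -0.40 ± 0.33, -0.13 ± 0.57 and 0.32 ± 0.60 (SD, n = 4), with a control range of -0.48 to 0.48, so its sign at the lower doses turns with the probe set. Psmb10 minus Psmb7 was -0.023 ± 0.17, 0.015 ± 0.17 and 0.18 ± 0.24 at the 3 doses, with a control range of -0.42 to 0.23. These are differences of changes, without a test.

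The stretches upstream of 4 genes are shown because they belong to the members the values above turn on: Psmb8 with its standard counterpart Psmb5, Psmd14 as the lowest member at 1.5 µg/kg and Psmd9 as the one above all controls at 6 µg/kg. They are the 250 bases before the annotated start, 5′ to 3′ on the gene's strand, from RefSeq with build GRCm38.p6. Capitals mark matches, on either strand, to GCGTG (the core that AhR binds), TGACNNNGC (the antioxidant response core, also used by the proteasome regulator Nfe2l1), CCAAT (the NF-Y box), GAAA and GAAA with 2 bases between them (an interferon regulatory factor site) and TTCNNNGAA (a STAT site). The motifs do not overlap each other here.
Psmb5, chr14:54617996-54618245, minus strand: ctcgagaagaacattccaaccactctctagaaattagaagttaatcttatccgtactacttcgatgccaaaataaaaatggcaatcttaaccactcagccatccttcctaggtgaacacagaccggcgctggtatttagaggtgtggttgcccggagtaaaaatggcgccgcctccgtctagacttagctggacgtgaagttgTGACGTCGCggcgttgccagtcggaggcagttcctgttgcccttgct
Psmb8, chr17:34197945-34198194, plus strand: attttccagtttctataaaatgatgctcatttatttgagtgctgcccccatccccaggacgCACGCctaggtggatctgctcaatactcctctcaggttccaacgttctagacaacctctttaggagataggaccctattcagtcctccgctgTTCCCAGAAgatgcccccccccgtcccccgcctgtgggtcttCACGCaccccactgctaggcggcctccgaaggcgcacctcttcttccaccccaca
Psmd14, chr2:61711444-61711693, plus strand: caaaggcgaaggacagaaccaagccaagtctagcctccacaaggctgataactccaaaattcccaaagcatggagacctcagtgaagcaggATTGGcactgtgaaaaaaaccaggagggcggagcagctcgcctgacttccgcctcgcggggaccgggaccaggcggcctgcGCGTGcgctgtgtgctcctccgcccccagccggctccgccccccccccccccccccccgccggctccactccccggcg
Psmd9, chr5:123227940-123228189, plus strand: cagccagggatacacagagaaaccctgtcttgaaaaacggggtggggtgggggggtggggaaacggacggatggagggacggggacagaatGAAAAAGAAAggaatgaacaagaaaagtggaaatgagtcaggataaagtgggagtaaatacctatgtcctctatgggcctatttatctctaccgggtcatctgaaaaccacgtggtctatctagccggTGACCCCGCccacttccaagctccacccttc

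Psmb8 held GCGTG at 2 places, read on the other strand as CACGC, and the one STAT-type match among the 36 proteasome promoters that could be searched. Psmb5 held one TGACNNNGC match and Psmd9 one TGACNNNGC and one interferon regulatory factor match, while Psmd14 held GCGTG and, on the other strand, CCAAT. Promoters were found for 34 of the 40 genes, 36 in all. GCGTG occurred in 16 of 36 (44.4%), against 28.2% of the 32851 promoters in the table. Among them were 11 of 27 promoters of standard subunits (40.7%) and 3 of 4 of immune ones, those of Psmb8, Psmb9 and Psmb10. TGACNNNGC occurred in 5 of 36 (13.9%, against 10.2%), in Psmb5, Psmb6, Psmc6, Psmd9 and Psmd12. CCAAT occurred in 13 of 36 (36.1%, against 33.8%), the interferon regulatory factor site in 3 (8.33%, against 2.98%), namely Psmb3, Psmd4 and Psmd9, and TTCNNNGAA in 1 (2.78%, against 7.02%). The matches describe these letters only, and no binding was measured.

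Of the other activators, Psme3, the nuclear PA28γ, had the highest mean change of all members at 1.5 µg/kg and was carried by 2 arrays. It read 1154, 1134, 707 and 659 at that dose against 605, 533, 491, 554, 720, 469, 698 and 1069 on controls 1 to 8. Arrays 1 and 2, the same ones on which the standard subunits were lowest, lay above every control, and the other 2 inside the range. The log2 change was 0.49 (SE 0.20, 95% interval 0.075 to 0.90, adjusted p = 0.32), with 0.19 and 0.074 at 3 and 6 µg/kg (adjusted p = 0.96 and 0.93). With the 3′ to 5′ ratio in the model it became 0.93 at 1.5 µg/kg (adjusted p = 0.020). Arrays 2, 3 and 4 of that dose had ratios of -0.02, -0.02 and -0.03, below every control, so this ratio and the dose are hard to separate. Control 8 had both the highest ratio of all arrays, 0.30, and the highest Psme3 signal of the controls. Psme4, the large activator PA200, was at -0.12, -0.13 and -0.16 (SE 0.13, adjusted p = 0.75, 0.95 and 0.73), and 2 of its arrays at 1.5 µg/kg were below and 1 above every control.

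The 3 genes below the filter were compared by an exact two-sided permutation test of the mean log2 signal, which can go no lower than 0.0020 with 8 controls and 4 arrays. Psmb9, the immune replacement of Psmb6, read 22.8 ± 9.3 (SD, n = 8) in controls and 42.1 ± 42.2, 28.4 ± 11.7 and 30.8 ± 12.9 (SD, n = 4) at the 3 doses, near the background of the arrays, with one array of 1.5 µg/kg at 103 and the rest of that group under 37. Psmc4, an ATPase, read 66.1 ± 21.6 in controls and 35.7 ± 30.5 at 1.5 µg/kg (exact p = 0.059, adjusted over the 9 tests 0.26). Psmd2, the large docking subunit for ubiquitin-carrying shuttles, read 74.7 ± 19.4 in controls and 48.6 ± 7.0 at 3 µg/kg (exact p = 0.053, adjusted 0.26). None of the 9 comparisons passed.

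Between the highest and the lowest dose, most members had a higher mean at 6 than at 1.5 µg/kg. The median was 0.13 for the 29 standard subunits, with 23 higher, and 0.33 for the 3 immune ones, against -0.003 over all kept genes. The standard median was 0.083 without 1.5 µg/kg array 1 and 0.079 without 6 µg/kg array 4. All 8 cardiomyocyte markers also had a higher mean at 6 than at 1.5 µg/kg, where 50.6% of all kept genes were lower. Their median was 0.083, and none passed the test. The part of heart muscle RNA content in the proteasome values of this comparison was not tested. An unadjusted limma p under 0.05 was reached by 10 of 37 in the higher direction (27.0%, against 6.36% of all genes) and by 1, Psmd3, in the lower (against 8.99%). The 10 were Psma6, Psmb4, Psmb8, Psmb10, Psmc6, Psmd6, Psmd7, Psmd8, Psmd9 and Psmd14. None passed after adjustment: Psmd9 was at 0.55 (SE 0.15, 95% interval 0.24 to 0.86, adjusted p = 0.088), Psmd7 at 0.50 (adjusted p = 0.12), Psmd14 at 0.45 (adjusted p = 0.18), Psmb8 at 0.57 (SE 0.22, adjusted p = 0.20) and Psmb10 at 0.33 (adjusted p = 0.18). Psmd9 was past the threshold without control 2 (0.55, adjusted p = 0.043) and when the 4 high-ratio arrays were dropped (0.57, adjusted p = 0.033). Control 2 is in neither group of this comparison, so the change itself stayed at 0.55. It bears on the p only through the spread and the adjustment over the whole fit. The 10 became 5 without 1.5 µg/kg array 4, 6 without 1.5 µg/kg array 2 and 6 without 6 µg/kg array 4. A linear trend over dose gave its smallest p for Psmb8, 0.074 on the log2 scale per µg/kg (SE 0.031, adjusted p = 0.64), and Psmc3, -0.035 (adjusted p = 0.68).

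Replicate spread is given as a description. The median pooled SD within groups was 0.17 (log2) for the standard subunits and 0.19 for the 3 immune ones, against 0.22 over all 6099 kept genes. Psma2 was among the steadiest at 0.078, and Psmb8 was at 0.30. By signal in controls the 29 kept standard subunits ranked from the 75.6th percentile (Psma1) to the 97.4th (Psma3) of all compared probe sets, while Psmc4 and Psmd2, below the filter, lay at the 31st and 33rd.

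Other genes that work with the proteasome were set beside it, from lists chosen with earlier results of these data known. Of 11 kept partners outside the naming rule (assembly factors, associated deubiquitinases and regulators), 8, 4 and 4 had a lower mean at the 3 doses in rising order, with medians of -0.11, 0.080 and 0.039, and none passed the test. Pomp, which matures the core particle, was at -0.25, 0.12 and -0.25 (adjusted p = 0.43, 0.96 and 0.56). Nfe2l1, the transcription factor that raises proteasome genes when the protease is short, was at 0.18 at 1.5 µg/kg (adjusted p = 0.37), on the other side from the standard subunits, and 0.010 at 6 µg/kg. Nfe2l2, its relative in the oxidative stress response, was at 0.24 at 6 µg/kg (adjusted p = 0.51). Of 14 kept genes that supply or deliver ubiquitinated proteins none passed at any dose, with medians of -0.010, 0.061 and -0.013. Bag6, a chaperone for misplaced membrane proteins, was at 0.36 at 1.5 µg/kg (adjusted p = 0.15).

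Downstream of the immune proteasome, all 7 kept MHC class I presentation genes had a higher mean at 6 µg/kg, where 51.5% of all kept genes were lower, with a median of 0.37, against 4 at 1.5 µg/kg (median 0.043) and 5 at 3 µg/kg (median 0.16). None passed the test. H2-K1, a class I heavy chain, was at 0.37 at 6 µg/kg (adjusted p = 0.15), Canx, a chaperone of the chain, at 0.50 (adjusted p = 0.43), Tap1, which carries peptides into the endoplasmic reticulum, at 0.32 (adjusted p = 0.45), and Pdia3 at 0.88 (adjusted p = 0.51). The controls differed among themselves by more for some of them: in controls 1 to 4 against 5 to 8, Pdia3 was lower by 1.83 and B2m by 0.91, both past the adjusted threshold. Of 12 kept interferon response genes 11 had a higher mean at 6 µg/kg and 1 a lower one, against the same share, with a median of 0.24, and none passed. Isg15, a ubiquitin-like interferon product, was at 0.55 (adjusted p = 0.45). Leukocytes express the immune subunits, class I genes and interferon genes, and of the leukocyte markers Cd74, the class II invariant chain, rose by 0.73 at 1.5 µg/kg and 0.92 at 6 µg/kg (adjusted p = 0.027 and 0.0028). At 3 µg/kg no leukocyte marker, Cd74 included, passed the test. The part of leukocyte RNA in the values of Psmb8, Psmb10 and the Psme2 pair was not tested.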

How the data were processed

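Total RNA of whole fetal hearts was hybridised to 20 single-colour Affymetrix MG-U74Av2 arrays. The values used are the intensity signals that the authors deposited, made with MAS5 per the submitters' processing notes, whose trimmed mean was about 500 on every array (500.28 to 500.34). No cell or image files and no detection calls were used here. Depth does not apply to arrays; their number limits the precision. Symbols came from the platform annotation: of 12422 compared probe sets (66 AFFX controls left out of 12488), 10833 had 1 symbol, 396 several and 1193 none, and 10817 were found in RefSeq.

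Arrays were scaled so that their mean after trimming 2% at each end was 500, and log2(signal + 32) was taken, which understates the change of dim genes. Probe sets at or above their array's 40th percentile on at least 4 arrays were kept (8097 of 12422, 6099 genes). limma 3.58.1 in R 4.3.3 (lmFit, contrasts.fit, eBayes with an intensity trend, tested on simulated data) fitted all 4 groups together for 7 comparisons, with Benjamini-Hochberg adjustment over all kept probe sets and a threshold of 0.05. Genes were represented by their brightest kept probe set. The members, gene lists, motifs and tests were chosen with earlier results of these data known. All members could be named. In full were given the immune subunits, Psmb5, Psmb6, Psmb7, Psme3, Psme4 and, for each dose and direction, the 3 members of smallest p, with others added where an array pattern is described. Alternatives were the deposited signals unscaled, quantile normalization, a pseudocount of 1 or 100, a filter at the 60th percentile or none, no intensity trend, other probe set choices, RNA quality measures, controls 1 to 4 or 5 to 8 alone, a replicate block, only the groups compared and leaving out each array. The dimmer Psmb5 probe set in the within-array difference was added after seeing the data. Replicate numbers showed no sign of pairing the arrays. The correlation of deviations had a median of -0.009 over 24 same-number pairs (-0.222 to 0.21) and -0.003 over 72 others (-0.243 to 0.328). Such correlations cannot show whether arrays of the same number were handled together. Figures were drawn with matplotlib 3.10.9.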

Additional observations from a re-analysis of the deposited data

Results flagged for a closer look

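In 148 groups of 4 or 8 arrays (37 members in 4 groups), 7 had one array whose gap to the rest exceeded Dixon's critical value, where chance flags about 1 in 20 groups. Psma5, an α-ring subunit, read 2197.9 on control 6 against 1400.0 to 1681.2 on the other controls. Psmd9, the assembly chaperone, read 299.7 on control 2 against 427.3 to 543.7. At 3 µg/kg, array 1 was high for Psmd3, at 2122.4 against 1929.4 to 1940.4, and for Psme1 of PA28, at 2532.3 against 2378.2 to 2399.2, and array 4 was low for the deubiquitinase Psmd14, at 858 against 1016.7 to 1051.9. At 6 µg/kg array 4 was low for Psmd14, at 857.7 against 1144.1 to 1194.1, and for the ATPase Psmc5, at 785.9 against 1064.1 to 1124.8. Control 6, control 2 and 6 µg/kg array 4 are among the 4 arrays with a high β-actin 3′ to middle ratio. Its part was not tested. No member differed between 6 and 1.5 µg/kg at an adjusted p under 0.05.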

How the results depend on the processing

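The count of members past the adjusted threshold was 0 in all 7 comparisons and stayed 0 under most alternatives. At 1.5 µg/kg it was 1 with the 3′ to 5′ ratio as a covariate (Psme3, 0.93, adjusted p = 0.020) and 1 against controls 5 to 8 alone (Psmd14, -0.63, adjusted p = 0.030), and leaving out 1 array gave 0 to 1 (Psmd14 without array 3 of that dose, -0.61, adjusted p = 0.040). The 3′ to 5′ ratio and this dose are hard to separate, as described for Psme3 above. In the linear trend it was 1 with the TCDD arrays alone (Psmd9, 0.13 per µg/kg, adjusted p = 0.026). For 6 against 1.5 µg/kg it was 1 after leaving out the 4 arrays above the β-actin limit (Psmd9, 0.57, adjusted p = 0.033), and leaving out 1 array gave 0 to 1 (Psmd9 without control 2, 0.55, adjusted p = 0.043). Control 2 is in neither group of that comparison and bears on it only through the shared fit. The median of the immune subunits for 6 against 1.5 µg/kg, 0.33, was 0.12 with a filter at the 60th percentile, which drops Psmb8, and 0.49 with the covariate. The median of the standard subunits in controls 1 to 4 against 5 to 8, -0.053, was -0.14 with the covariate. The cause was not tested where none is named.

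The 11 members lower at 1.5 µg/kg at an unadjusted p under 0.05 were 8 to 14 under other settings and 7 to 13 with 1 array left out, and the standard median stayed between -0.23 and -0.12. All probe sets past the adjusted threshold numbered 17 at 1.5 µg/kg (2 to 156 under other settings, 4 to 52 with 1 array left out), 2 at 3 µg/kg (1 to 30, and 2 to 3), 6 at 6 µg/kg (3 to 187, and 4 to 12), 4 for the mean of the doses (3 to 25, and 4 to 9), 5 for the trend (2 to 223, and 2 to 6), 28 for 6 against 1.5 µg/kg (0 to 137, and 2 to 71) and 127 between controls 1 to 4 and 5 to 8 (80 to 143, and 25 to 177).

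The replicate block could be fitted only with controls 1 to 4, since the doses have no numbers above 4. Whether the numbers pair the arrays is not known. With it, 0 members passed in any comparison, all probe sets past the threshold numbered 2, 3 and 122 at 1.5, 3 and 6 µg/kg and 99 for 6 against 1.5 µg/kg, and the standard medians were -0.16, -0.025 and -0.016 at the 3 doses, as against controls 1 to 4 alone.

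Signs of small changes turned in several places, none of them past the threshold. With the 3′ to 5′ covariate, Psmb1 was at -0.20 at 1.5 µg/kg, -0.0010 at 6 µg/kg and 0.20 for 6 against 1.5 µg/kg, Psmb6 at -0.049 at 3 µg/kg, Psmd14 at 0.0010 at 6 µg/kg, and Psmc3, Psmd4 and Psme1 at 0.077, 0.19 and 0.082 for 6 against 1.5 µg/kg. With the mean of all probe sets, Psmb1 was at -0.099 at 1.5 µg/kg and 0.11 for 6 against 1.5 µg/kg, Psmb5 at 0.038, 0.11 and -0.067 at 1.5 µg/kg, 3 µg/kg and 6 against 1.5 µg/kg, and Psmc3 at 0.19 for the last. Against controls 1 to 4 alone and with the replicate block alike, Psmb1 was at -0.054 at 1.5 and -0.11 at 6 µg/kg, Psmb7 at 0.0060 at 6 µg/kg, Psmd14 at 0.044 at 3 and 0.17 at 6 µg/kg, and Psmd7 at 0.067 at 3 µg/kg. Against controls 5 to 8 alone, Psmb1, Psmc3, Psmd4 and Psme1 were at 0.098, 0.0080, 0.13 and 0.12 at 3 µg/kg, Psmd4 and Psme1 at 0.026 and 0.036 at 1.5 µg/kg, and Psme3 at -0.11 at 6 µg/kg. With the 4 arrays above the β-actin limit left out, Psmb1, Psmb5, Psmc3, Psmd4 and Psme1 were at 0.039, 0.010, 0.011, 0.068 and 0.089 at 3 µg/kg, Psme1 at 0.0060 at 1.5 µg/kg, Psmd14 at 0.018 at 6 µg/kg, and Psmb5 and Psmb6 at -0.012 and -0.036 for 6 against 1.5 µg/kg. With quantile normalization Psme1 was at 0.018 at 3 µg/kg and Psmd14 at 0.029 at 6 µg/kg.

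Leaving out 1 array turned the sign of values near 0, with these ranges. At 1.5 µg/kg, Psme4 ran from -0.25 to 0.038. At 3 µg/kg, Psmb1 ran from -0.13 to 0.078, Psme1 from -0.053 to 0.031, Psmd4 from -0.10 to 0.011, Psmb5 from -0.087 to 0.0030 and Psmb6 from -0.030 to 0.11. At 6 µg/kg, Psmd14 ran from -0.052 to 0.11, Psmb1 from -0.047 to 0.041, Psma5 from -0.22 to 0.0020, Psmb6 from -0.26 to 0.051 and Psme3 from -0.074 to 0.29. For 6 against 1.5 µg/kg, Psme4 ran from -0.19 to 0.092, Psmb5 from -0.033 to 0.048, Psme1 from -0.14 to 0.012, Psmc3 from -0.15 to 0, Psmd4 from -0.33 to 0.0090 and Psmb6 from -0.036 to 0.28.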
